A study of Mus musculus with 6 samples.

Results

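The proteasome genes of sorted mouse spleen cells are described here in cells that had or had not taken up human mesenchymal stromal cells (MSCs). Members were all rows of the deposited count table whose symbol is Psma, Psmb, Psmc, Psmd, Psme or Psmf followed by a number, and whose summed count over the 6 libraries was at least 60. All 44 genes with such a symbol met the minimum, out of 21847 genes in the table. They comprise 8 alpha and 8 beta genes of the 20S core, 6 ATPase and 14 non-ATPase genes of the 19S cap, 5 activator or immune genes (Psmb8, Psmb9, Psmb10, Psme1 and Psme2), and 3 other activators or inhibitors (Psme3, Psme4 and Psmf1).

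The MSCs came from human cord tissue and carried Qtracker, a fluorescent quantum dot label. Mouse spleen cells without their T cells joined them for a culture of 3 days, after which CD11b+ cells were sorted. Qtracker positive cells, which the labels say had engulfed MSCs, and Qtracker negative cells, which the labels say had not, gave 3 libraries each, and both groups had been cultured with MSCs. The sources used here name neither mouse strain nor age. The second sorting marker appears in the labels both as Ly6G negative and as Ly6C negative. Both groups are labelled as sorted splenic macrophages. The 3 libraries of a group are described as paired biological replicates, but separate animals are not named as their source. The p-values therefore reflect only how much these 6 libraries vary, and part of that may be technical.

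The proteasome is the protease that degrades ubiquitin-tagged proteins in the cytosol and nucleus. Its 20S core is a stack of rings, with alpha subunits outside and beta subunits inside, of which beta1, beta2 and beta5 cut peptides. The 19S cap recognises ubiquitin, unfolds the substrate with a ring of ATPases and feeds it into the core. In cells of the immune system, and in most cells exposed to interferon gamma, the catalytic subunits can be replaced during assembly by the immune subunits beta1i, beta2i and beta5i, which are known for shaping the peptides shown on MHC class I. The activator PA28, made of the products of Psme1 and Psme2, can cap the core in place of the 19S complex.

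The deposited totals were 42490705 to 55506993 estimated counts in Qtracker positive libraries and 33943090 to 44061187 in Qtracker negative libraries. Levels are given below as CPM, a count set against its library total after TMM scaling, which adjusts each total for the most abundant genes. Replicate 1 stood apart in cell markers. The summed level of 13 B cell markers was 266, 347 and 348 CPM in Qtracker positive replicates 1, 2 and 3, and 6600 CPM in Qtracker negative replicate 1 against 2198 and 2301 CPM in negative replicates 2 and 3. The 12 measured neutrophil markers summed to 1369 to 1782 CPM in positive libraries, and to 2872 CPM in negative replicate 1 against 73586 and 73880 CPM in negative replicates 2 and 3. Mmp8 alone, which was not called, made up 694 to 1004 CPM of the positive sums. The 12 macrophage markers summed to 28936 to 39936 CPM in positive libraries and 1076 to 13443 CPM in negative libraries, lowest in negative replicate 1, and none of these 12 was at 0 in any library. Lyz2 alone made up 19347 to 27080 CPM in positive libraries, and 712, 11503 and 11432 CPM in negative replicates 1, 2 and 3. In each negative library another list summed higher than the macrophage list, B cell markers in replicate 1 and neutrophil markers in replicates 2 and 3, so the macrophage label is not matched by the marker sums there. Ly6g, whose product is one of the markers the labels name, was at 0 to 0.38 CPM in positive and 1.33 to 29.2 CPM in negative libraries.

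The promoters of the catalytic subunits beta1 and beta5 and of their immune counterparts are printed first, because the immune to constitutive ratios reported below are built on these genes. Each is the RefSeq sequence of GRCm38.p6 (the assembly of mm10) from 250 bases before to 50 bases after the annotated start, read 5′ to 3′ on the strand of the gene. Psmb9 lies at chr17:34187281-34187580 on the minus strand, Psmb6 at chr11:70525107-70525406 on the plus strand, Psmb8 at chr17:34197945-34198244 on the plus strand and Psmb5 at chr14:54617946-54618245 on the minus strand. Capitals mark matches, on either strand, to TGANNNNGC, the interferon-stimulated response core, TTCNNNGAA (gamma activated core) or CCAAT. The interferon-stimulated response core is a pair of GAAA runs with any 2 bases between them. TGANNNNGC is a loose form of the core of the antioxidant response element, which NRF1 and NRF2 bind.
Psmb9: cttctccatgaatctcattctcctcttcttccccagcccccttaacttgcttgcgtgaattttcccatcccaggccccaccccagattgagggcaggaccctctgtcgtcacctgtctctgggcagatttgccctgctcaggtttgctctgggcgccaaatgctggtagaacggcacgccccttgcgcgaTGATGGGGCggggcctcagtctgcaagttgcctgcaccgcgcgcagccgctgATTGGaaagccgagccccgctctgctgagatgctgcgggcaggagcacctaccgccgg
Psmb6: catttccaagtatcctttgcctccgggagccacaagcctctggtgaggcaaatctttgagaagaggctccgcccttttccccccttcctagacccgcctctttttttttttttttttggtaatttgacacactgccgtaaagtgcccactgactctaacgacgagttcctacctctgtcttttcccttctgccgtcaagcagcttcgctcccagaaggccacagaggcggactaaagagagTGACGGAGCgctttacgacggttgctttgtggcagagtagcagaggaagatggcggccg
Psmb8: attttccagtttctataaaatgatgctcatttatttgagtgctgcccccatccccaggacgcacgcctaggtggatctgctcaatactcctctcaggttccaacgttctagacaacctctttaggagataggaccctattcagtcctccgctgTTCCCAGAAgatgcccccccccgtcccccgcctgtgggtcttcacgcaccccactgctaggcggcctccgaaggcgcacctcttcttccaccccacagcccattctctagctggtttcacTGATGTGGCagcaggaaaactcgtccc
Psmb5: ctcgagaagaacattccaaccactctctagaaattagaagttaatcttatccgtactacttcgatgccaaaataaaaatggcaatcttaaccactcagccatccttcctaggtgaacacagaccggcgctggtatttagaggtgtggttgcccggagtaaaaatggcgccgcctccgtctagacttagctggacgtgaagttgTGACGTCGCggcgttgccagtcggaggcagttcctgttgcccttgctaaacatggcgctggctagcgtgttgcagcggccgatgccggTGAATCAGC
The printed Psmb9 window holds 1 TGANNNNGC match and, on the other strand, 1 CCAAT match, and the Psmb6 window holds 1 TGANNNNGC match. The Psmb8 window has 1 TTCNNNGAA and 1 TGANNNNGC match, and the Psmb5 window has 2 TGANNNNGC matches. No marked matches overlapped in these windows. The RefSeq starts used here differ from GENCODE M21, which begins Psmb8 at 34197721 and Psmb9 at 34187764 on chromosome 17. Both immune windows therefore lie inside the GENCODE gene models, while the Psmb5 and Psmb6 windows span the GENCODE starts. Sequence before the GENCODE starts of Psmb8 and Psmb9 is not in the printed windows. RefSeq promoters were found for 37 of the 44 genes, with 40 start sites, and not for Psma8, Psmb1, Psmb2, Psmb7, Psmc3, Psmd3 and Psmd7. TGANNNNGC occurred in 57.5% of these 40 windows against 41.3% of all 32851 windows, the interferon-stimulated response core in 10% against 3.44%, TTCNNNGAA in 5% against 8.3%, and CCAAT in 35% against 37.4%. The 4 windows with the interferon-stimulated response core were those of Psmb3, Psmd4, Psmd9 and Psme1, and not those of Psmb8, Psmb9 or Psmb10. A match is a string of letters in the window and does not show that a factor binds there.

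Of the 36 core and cap genes, 19 rose and 0 fell in Qtracker positive cells, and of the 5 activator or immune genes 1 rose and 1 fell; the difference between these classes was not tested. Of the 44 genes, 21 rose and 1 fell, at an adjusted p under 0.05 by edgeR's quasi-likelihood test with replicate number as a block. Over all 14605 genes tested, 18.5% were called higher and 16.3% lower. The members' median log2 fold change was 0.61, against -0.01 for all tested genes. Every one of the 34 core and cap genes other than Psma8 and Psmb11 had a fold change above 0, with values from 0.25 to 1.68, and in all 34 each positive library exceeded each negative library. Of all tested genes, 30% were separated upward in that way. The calls leaned on the close replicates 2 and 3. Without replicate 1, 42 members rose and 1 fell (37.1% and 35.8% of all genes). Without replicate 2 edgeR called 0 of the 44 genes (0.917% of all genes higher and 1.18% lower). There 13 members were at an unadjusted p under 0.05, as were 4453 of all 14831 genes tested. Without replicate 3, and with replicates 2 and 3 of each group summed, edgeR called 0 members and 0 genes (0.0% in each direction). In these fits 11 and 14 members were at an unadjusted p under 0.05, as were 4209 of 14803 and 4488 of 15570 genes tested. In all 3 settings the members' share at that unadjusted p was near the share of all genes. In these 3 settings DESeq2 called 5 members higher and 0 lower in each, against 10.2%, 9.98% and 10.2% of all genes higher and 12.0%, 11.8% and 12.2% lower. Limma-voom called 1 member higher and 0 lower in each, against 4.94%, 3.7% and 4.27% of all genes higher and 6.02%, 4.18% and 4.75% lower. With library totals alone as scaling, which moves the median of all genes to -0.36, 9 members rose (10.8% of all genes) and 1 fell (22.7%), and the members' median stood 0.62 above that of all genes, as under TMM. On all 6 libraries, the members called higher and lower were 18 and 1 with median-of-ratios scaling (17.4% and 17.0% of all genes), 17 and 0 with no filter on low counts (11.4% and 9.2%), and 28 and 1 with DESeq2 (23.4% and 25.1%). They were 26 and 1 with limma-voom (20.6% and 19.5%), 19 and 1 on the authors' normalized values (17.2% and 17.3%), and 27 and 1 without the replicate block (19.9% and 20.9%).

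**Figure D1:**
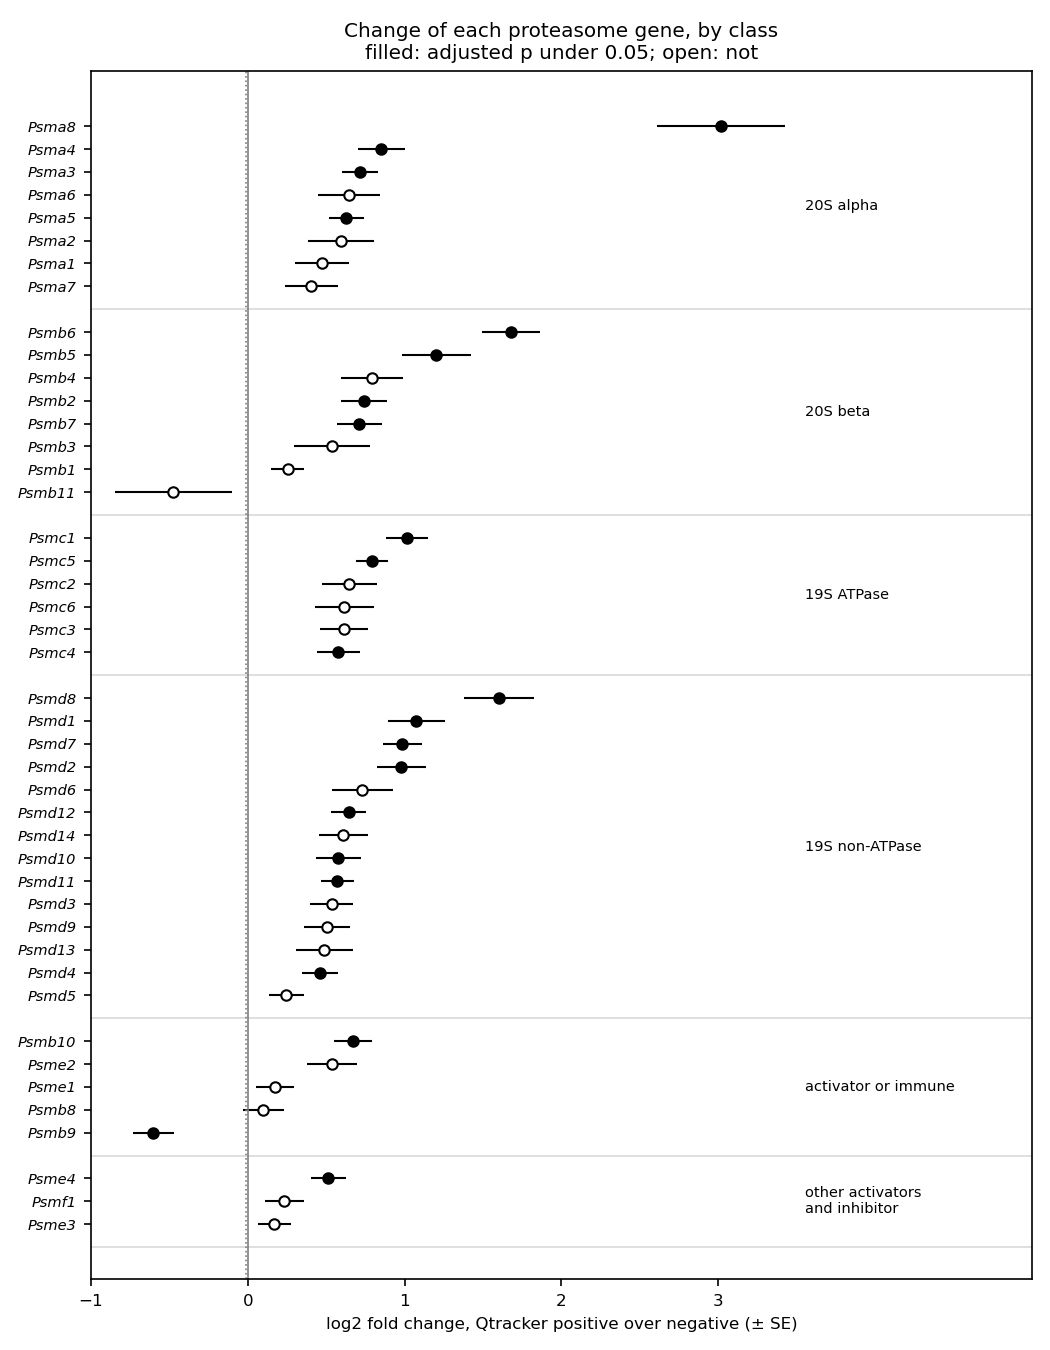
Log2 fold change of Qtracker positive over Qtracker negative libraries for each of the 44 proteasome genes, in classes, with its standard error; filled points have an adjusted p under 0.05 and the dotted line is the median of all tested genes. Psma8, Psmb6 and Psmd8 lie farthest to the right, and Psmb9 is the filled point left of 0.

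The members took up 0.503%, 0.405% and 0.413% of all counts in Qtracker positive replicates 1, 2 and 3, and 0.396%, 0.337% and 0.34% in Qtracker negative replicates 1, 2 and 3. On the TMM scale they summed to 4971 ± 590.2 CPM in positive and 3163 ± 73.5 CPM in negative libraries (SD, n = 3 each). Positive libraries were thus higher on both scales within each replicate number. In sorted bulk cells, more cells of a type and more RNA per cell cannot be told apart.

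Among the alpha ring genes 4 of 8 rose and 0 fell, with a median log2 fold change of 0.64. Over all tested genes 18.5% were called higher and 16.3% lower, and in 30% each positive library exceeded each negative library. Psma4 stood at 93.8, 85.4 and 89 CPM in positive replicates 1, 2 and 3, and at 42.2, 53.7 and 53.5 CPM in negative replicates 1, 2 and 3. The groups did not overlap, and the log2 fold change was 0.85 ± 0.15 (standard error; adjusted p = 0.0263). Psma3 stood at 40.4, 42 and 38.8 CPM in positive libraries and 22.7, 25.3 and 25.9 CPM in negative libraries, a change of 0.71 ± 0.11 (adjusted p = 0.0231) with separate groups. Psma5 was the other ring gene called, at 0.63. Psma1, Psma2, Psma6 and Psma7 had values from 0.40 to 0.65 without passing the test, and in each the negative library of replicate 1 was the lowest of the 6.

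Psma8, which encodes the alpha subunit of the testis proteasome and is closely related to Psma7, had the largest fold change of the 44 genes at a very low level. It had 116, 119 and 147 counts in positive replicates 1, 2 and 3, and 17, 20 and 11 counts in negative replicates 1, 2 and 3. That is 2.87 ± 0.383 CPM in positive and 0.358 ± 0.109 CPM in negative libraries (SD, n = 3 each), or 3.02 ± 0.41 on the log2 scale (adjusted p = 0.0175). Salmon estimates counts from reads that related genes can share, so the count of Psma8 is uncertain.

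Of the 8 beta genes outside the immune class 4 rose and 0 fell, with a median of 0.73, and the 2 with the largest changes encode catalytic subunits. For all tested genes the shares were 18.5% higher, 16.3% lower and 30% with separate groups upward. Psmb6, which encodes beta1, stood at 296, 187 and 184 CPM in positive replicates 1, 2 and 3. In negative replicates 1, 2 and 3 it stood at 70.6, 66.2 and 66.3 CPM. All positive libraries were over 2 times the highest negative one, replicate 1 being the highest, and the log2 fold change was 1.68 ± 0.18 (adjusted p = 0.013). Psmb5, which encodes beta5, had 151, 119 and 125 CPM in positive libraries and 45.5, 63.6 and 63.7 CPM in negative libraries, again with no overlap. Its change was 1.20 ± 0.22 (adjusted p = 0.0288). Psmb7, which encodes beta2, had 87.7, 86.2 and 90.5 CPM in positive libraries and 44.2, 58.9 and 59.9 CPM in negative libraries. It rose by 0.71 ± 0.14 (adjusted p = 0.0337). The noncatalytic Psmb2 rose by 0.74 ± 0.14 (adjusted p = 0.0319). Psmb4 missed the threshold at 0.79 (adjusted p = 0.0509), Psmb3 and Psmb1 had 0.54 and 0.26, and the thymic subunit gene Psmb11 was at 0.399 CPM in positive and 0.536 CPM in negative libraries, with overlapping groups. Some of these genes share sequence with another annotated gene. Psmb5 contains Mir686 on the same strand (3741 counts over the 6 libraries, itself higher by 1.15). Psmb7 overlaps Nek6 on the opposite strand over 6571 bases, and Nek6 rose by 3.03; the library kit was a stranded one, but the sources used here do not say if reads were counted by strand.

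Of the 6 ATPase genes of the cap 3 rose and 0 fell, with log2 fold changes from 0.58 to 1.02. All 6 were at an unadjusted p under 0.05, as were 7348 of all 14605 tested genes. Of those tested genes 18.5% were called higher and 16.3% lower, and 30% had separate groups upward. Psmc1 stood at 168, 170.0 and 165 CPM in positive replicates 1, 2 and 3 and at 71.9, 90.2 and 87.7 CPM in negative replicates 1, 2 and 3. The groups were separate, with a log2 fold change of 1.02 ± 0.13 (adjusted p = 0.0164). Psmc5 rose by 0.79 ± 0.10 (adjusted p = 0.0163) and changed almost equally in the replicate numbers, by 0.84, 0.76 and 0.76. Its call was lost with library totals (adjusted p = 0.0577). Psmc4 rose by 0.58 ± 0.14 (adjusted p = 0.046), a call lost with median-of-ratios scaling (adjusted p = 0.0532), no filter (0.0567), library totals (0.19) and the authors' normalized values (0.0644).

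In the non-ATPase class 8 of 14 genes rose and 0 fell, with a median of 0.59, and Psmd8 had the largest value of the class. The shares of all tested genes were 18.5% higher, 16.3% lower and 30% with separate groups upward. Psmd8, whose product is the lid subunit Rpn12, stood at 446, 259.8 and 259 CPM in positive replicates 1, 2 and 3, and at 103, 101 and 103 CPM in negative replicates 1, 2 and 3. The 3 negative libraries were within 3 CPM of each other while positive replicate 1 was far above replicates 2 and 3. The log2 fold change was 1.60 ± 0.22 (adjusted p = 0.0182), and within replicate numbers 1, 2 and 3 it was 2.11, 1.37 and 1.34. The large scaffold subunits Psmd1 and Psmd2, which bind ubiquitin receptors and shuttle factors at the base of the cap, rose by 1.07 ± 0.18 (adjusted p = 0.0245) and 0.98 (adjusted p = 0.0224). Psmd1 stood at 154, 146 and 147 CPM in positive libraries and 55.6, 78.8 and 81.3 CPM in negative libraries, with no overlap. Psmd7, the structural partner of the deubiquitinase of the lid, stood at 105, 83 and 83.1 CPM in positive libraries and 46.2, 46.2 and 43.7 CPM in negative libraries, and rose by 0.98 ± 0.12 (adjusted p = 0.016). That deubiquitinase, encoded by Psmd14, was at 0.61 (adjusted p = 0.0545) without passing. The products of Psmd5, Psmd9 and Psmd10 help to assemble the base and are not part of the finished cap. Psmd5 had 0.25 and Psmd9 0.51, neither passing the test, and Psmd10 rose by 0.58 (adjusted p = 0.0499), a call lost, as was that of Psmd4, under the same 4 settings as Psmc4.

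Levels were also set per kilobase of median coding transcript length. Psmb6 had 278 ± 79.8 CPM per kb in positive and 84.8 ± 3.11 CPM per kb in negative libraries (SD, n = 3 each). Over Psmb1 to Psmb7 the level per length ran from 70.3 to 278 CPM per kb in positive cells, with Psmb6 at the top, and from 46.9 to 94.1 CPM per kb in negative cells, with Psmb3 at the top. Psmb6 and Psmb3 in negative cells, at 84.8 and 94.1 CPM per kb, did not differ beyond the spread of Psmb3 (SD 15.2). The 14 non-ATPase genes ran from 4.62 to 211 CPM per kb in positive and from 3.25 to 67 CPM per kb in negative cells, with Psmd9 lowest and Psmd8 highest in both. Among Psma1 to Psma7 the range was 21.8 to 137 CPM per kb in positive and 13.3 to 91.7 CPM per kb in negative cells. The annotated transcript may not be the one expressed, so these levels are approximate.

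Of the 5 activator or immune genes 1 rose, 1 fell and 3 did not pass, counts close to the shares of all tested genes (18.5% higher and 16.3% lower). Their median was 0.17, with 4 of 5 values above 0, and Psmb10 and Psme2 had values within the range of the core and cap genes. Psmb9, which encodes beta1i, stood at 76.7, 65.7 and 67.1 CPM in positive replicates 1, 2 and 3, and at 135, 92.1 and 94.9 CPM in negative replicates 1, 2 and 3. All positive libraries were below all negative ones, a separation that 29.4% of all tested genes showed downward, and the log2 fold change was -0.60 ± 0.13 (adjusted p = 0.0377). The direction held in all 11 alternatives tried, with values from -0.95 to -0.48, but with no filter on low counts the adjusted p was 0.0603, and it was 0.214 without replicate 2, 0.236 without replicate 3 and 0.235 with replicates 2 and 3 summed. Psmb8, which encodes beta5i, had 242, 189.9 and 187 CPM in positive libraries and 254, 165 and 168 CPM in negative libraries. The groups overlapped and the change of 0.10 ± 0.13 did not pass (adjusted p = 0.577). With library totals alone the sign of its value turned (-0.25). Psmb10, which encodes beta2i, had 57.2, 32.6 and 31.5 CPM in positive libraries and 31.7, 21.3 and 21.6 CPM in negative libraries. The groups overlapped across replicate numbers, though the positive library was higher within each number, and the gene rose by 0.67 ± 0.12 (adjusted p = 0.0285). Fitted with no block, the adjusted p was 0.107, and with library totals it was 0.105.

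**Figure D2:**
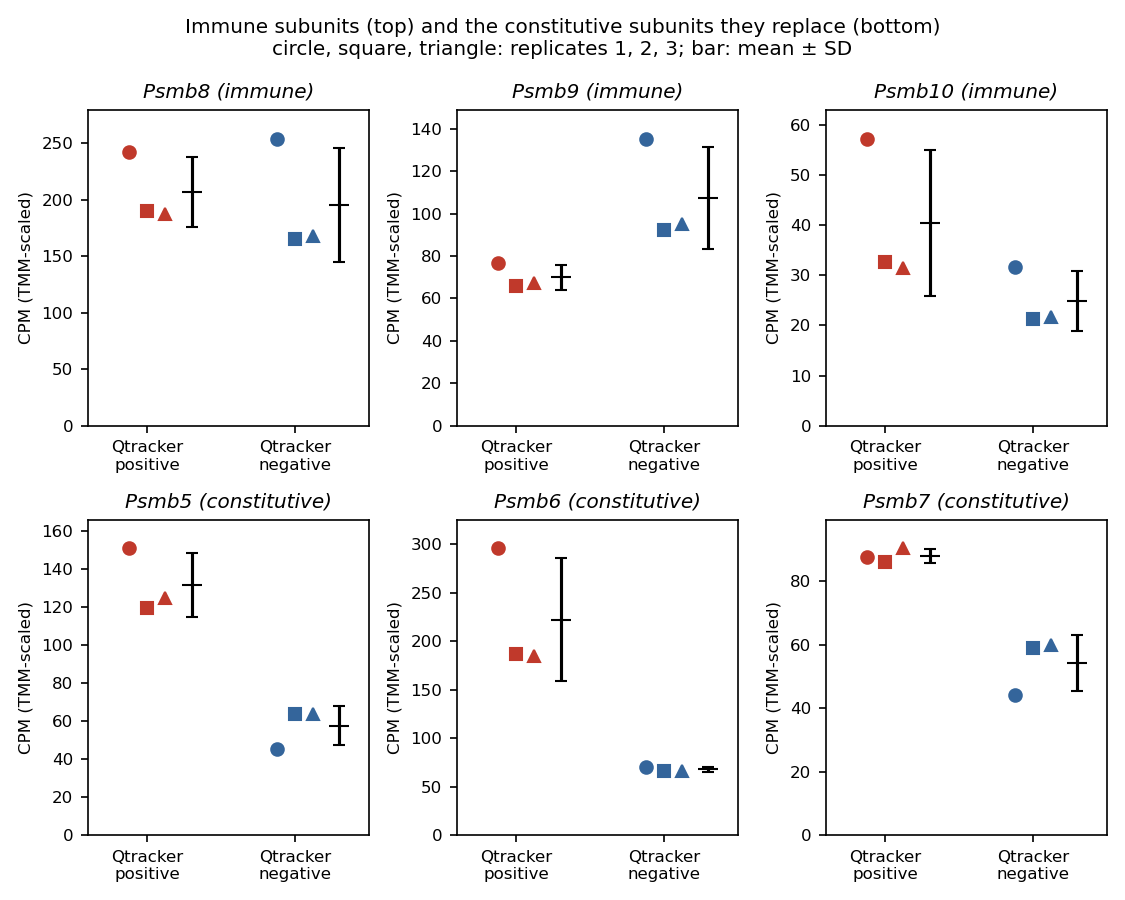
CPM of the immune subunits Psmb8, Psmb9 and Psmb10 (top) and of the constitutive subunits Psmb5, Psmb6 and Psmb7 that they replace (bottom), per library, with the mean and SD of each group of 3. Psmb5 and Psmb6 are higher in every positive library, Psmb9 is lower in every positive library, and the groups overlap for Psmb8 and Psmb10.

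Neither gene of PA28 passed the test. Psme1 had 215, 186 and 181 CPM in positive replicates 1, 2 and 3, and 207, 156 and 157 CPM in negative replicates 1, 2 and 3. The groups overlapped, and the change of 0.17 ± 0.12 did not pass (adjusted p = 0.318). Psme2 had 238, 146 and 159.7 CPM in positive libraries and 132, 115 and 119 CPM in negative libraries. These groups did not overlap, a separation that 30% of all tested genes showed upward, but the change of 0.54 ± 0.16 missed the threshold (adjusted p = 0.0686). The near-identical copy Psme2b, with 3855 counts in all, had 8.82 ± 2.58 CPM in positive and 19.7 ± 7.37 CPM in negative libraries (SD, n = 3 each), so the count of Psme2 is uncertain. Of the other activators, Psme4, which encodes the nuclear activator PA200, had 92, 135 and 145 CPM in positive libraries and 61.1, 101 and 100.3 CPM in negative libraries. It rose by 0.51 ± 0.11 (adjusted p = 0.0375), although the groups overlapped, with replicate 1 low in both. Its adjusted p was 0.184 with no block, 0.331 with library totals, 0.0512 with no filter and 0.0606 on the authors' normalized values. Psme3, which encodes the nuclear PA28 gamma, and Psmf1, which encodes the inhibitor PI31, were at 0.17 and 0.23 and did not pass. With library totals alone as scaling, the values of Psme1, Psme3 and Psmf1 turned negative.

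The ratio of an immune subunit to the constitutive subunit it replaces is computed within a library, so library scaling cancels. Psmb9 over Psmb6 was 0.259, 0.352 and 0.365 in positive replicates 1, 2 and 3, and 1.92, 1.39 and 1.43 in negative replicates 1, 2 and 3. The groups did not overlap, and on the log2 scale the ratio was -1.64 ± 0.271 in positive and 0.644 ± 0.255 in negative libraries (SD, n = 3 each). This is a difference of -2.28 ± 0.21 (standard error), or a ratio 4.85 times lower in Qtracker positive cells. Psmb8 over Psmb5 was 1.61, 1.59 and 1.5 in positive libraries, and 5.58, 2.59 and 2.63 in negative libraries, with negative replicate 1 far above the others. The log2 difference was -1.10 ± 0.37, again without overlap, and -0.76 without replicate 1. Psmb10 over Psmb7 was 0.653, 0.379 and 0.349 in positive libraries, and 0.718, 0.362 and 0.361 in negative libraries. Its log2 difference was -0.040 ± 0.44, and replicate 1 was the highest in both groups. The standard errors and exact two-sided permutation tests of these ratios treated the 6 libraries as unpaired, without the replicate block. The permutation p was 0.1 for the first and second ratio and 0.8 for the third. With 3 unpaired libraries against 3, the smallest possible p is 0.1. Adjusted over the 3 pairs, these exact permutation p-values were 0.15, 0.15 and 0.8, so none passed 0.05.

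**Figure D3:**
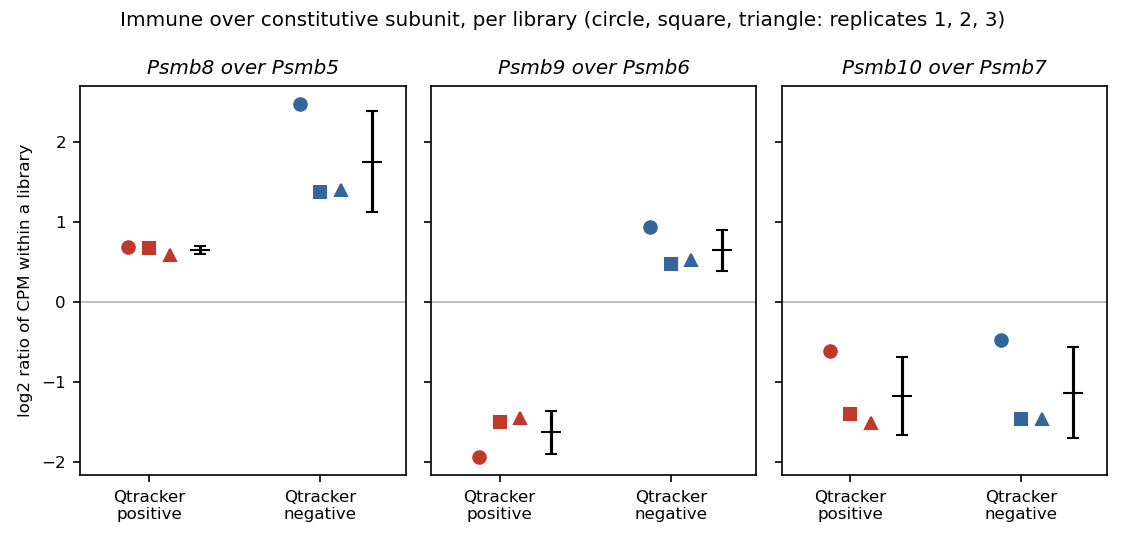
Log2 ratio of CPM of immune over constitutive subunit within each library, with the mean and SD of each group of 3. Psmb9 over Psmb6 lies below 0 in all positive and above 0 in all negative libraries, Psmb8 over Psmb5 is lower in all positive libraries, and Psmb10 over Psmb7 overlaps.

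Expressed per kilobase, beta1i made up 16.1% ± 2.43 of the beta1 and beta1i transcripts in positive cells and 48% ± 4.41 in negative cells (SD, n = 3 each). For beta5i the share was 42.2% ± 0.905 in positive and 60.7% ± 9.98 in negative cells. Beta2i made up 28.4% ± 7.12 in positive and 29.1% ± 8.44 in negative cells, a difference smaller than the spread. These shares concern RNA, and assembled immunoproteasomes were not measured.

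Class medians were also taken within replicate numbers. Across core and cap genes the median log2 ratio of positive to negative libraries was 0.96 in replicate 1, 0.50 in replicate 2 and 0.53 in replicate 3. In the activator or immune class it was 0.055, 0.25 and 0.21 in replicates 1, 2 and 3. The medians of all tested genes were -0.0099, 0.0072 and 0.0046 in replicates 1, 2 and 3.

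**Figure D4:**
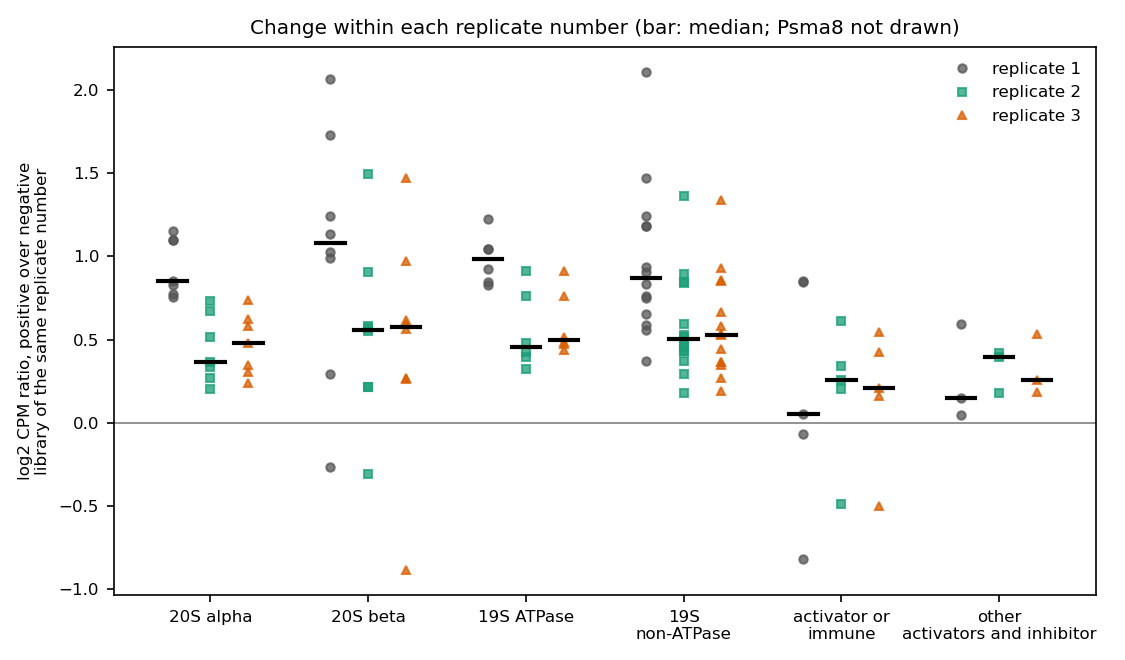
Log2 ratio of the positive to the negative library of the same replicate number for each proteasome gene except Psma8, by class, with the median of the genes drawn as a bar. Core and cap genes lie above 0 in all 3 replicates except Psmb11, and the medians of these 4 classes are highest in replicate 1.

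Cell type markers also differed between the groups, and their counts are set against 18.5% higher and 16.3% lower among all tested genes. Of 13 B cell markers 11 fell and 0 rose, and the list summed to 266 to 348 CPM in positive and 2198 to 6600 CPM in negative libraries. Of 15 T cell markers 12 fell and 1 rose, summing to 104 to 129 CPM in positive and 50.9 to 240.5 CPM in negative libraries; Il7r, the gene that rose, made up 99.6 to 114 CPM of the positive sums. Trac, Trbc1 and Lat were at 0 in 2 positive libraries each. Of 10 tested NK cell markers 7 fell and 0 rose, summing to 1.65 to 6.68 CPM in positive and 18.8 to 97.9 CPM in negative libraries; Klra8 and Klre1 were at 0 in all 3 positive libraries. Of 12 neutrophil markers 9 fell and 0 rose, and 8 of 12 macrophage markers rose and 0 fell. Of 10 tested dendritic cell markers 5 fell and 1 rose, summing to 653 to 746 CPM in positive and 357 to 699 CPM in negative libraries. Irf8 alone made up 419 to 442 CPM of the positive and 274 to 579 CPM of the negative sums. Bst2, the gene that rose, added 206 to 225 CPM in positive and 31.2 to 39.6 CPM in negative libraries. Psmb9 and Psmb8, like the B cell list, were highest in negative replicate 1. Psmb10 was highest, at 57.2 CPM, in positive replicate 1, where the B cell list had its lowest sum of 266 CPM. The part of these cells in the proteasome results was not tested.

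Counts in other gene lists of the pathway are set against 18.5% higher and 16.3% lower among all tested genes. Of 17 measured assembly and associated genes 5 rose and 1 fell. Usp14, a deubiquitinase of the cap, rose to 50.9 ± 7.26 CPM in positive libraries, against 26.1 ± 2.78 CPM in negative libraries (SD, n = 3 each), a log2 fold change of 0.96 ± 0.12 (adjusted p = 0.0152). Ublcp1, a phosphatase of the nuclear proteasome, was the gene that fell, at 17 ± 0.338 CPM in positive and 31.4 ± 1.54 CPM in negative libraries (-0.88 ± 0.11, adjusted p = 0.0154). The assembly chaperone Pomp, chosen after its value was seen, rose by 1.17 (adjusted p = 0.022). Of 9 genes of NRF1 and NRF2 regulation 2 rose and 0 fell, a share higher near that of all genes. Nfe2l2, which encodes NRF2, had 244, 349 and 356 CPM in positive replicates 1, 2 and 3 and 62.6, 173 and 163 CPM in negative replicates 1, 2 and 3, and rose by 1.36 ± 0.25 (adjusted p = 0.0292). Its partner Maff rose by 1.29 ± 0.23 (adjusted p = 0.0275). Nfe2l1, which encodes NRF1, the factor known to drive proteasome genes when the protease is impaired, was at 0.96 ± 0.24 without passing (adjusted p = 0.0513), and was likewise chosen after its value was seen. Of 10 measured ubiquitin and p97 genes 2 rose and 0 fell, again near the share of all genes. The unfoldase Vcp rose by 0.77 ± 0.17 (adjusted p = 0.0385) and its cofactor Nsfl1c by 0.70 ± 0.10 (adjusted p = 0.0196).

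Of 12 genes of MHC class I processing 5 rose and 1 fell, against 18.5% higher and 16.3% lower among all tested genes. The chaperone Canx had 775 ± 50.3 CPM in positive and 303 ± 45.3 CPM in negative libraries (SD, n = 3 each), a log2 fold change of 1.36 ± 0.15 (adjusted p = 0.0138). The trimming peptidase Erap1 rose by 0.72 ± 0.11 (adjusted p = 0.02). The peptide transporter genes lie beside Psmb8 and Psmb9 on chromosome 17, and they are named here with their values already known. Tap2 was the gene that fell, by 0.63 on the log2 scale (adjusted p = 0.0285), with 158, 128 and 122 CPM in positive replicates 1, 2 and 3 and 236, 195 and 198 CPM in negative replicates 1, 2 and 3. Tap1, whose annotation overlaps that of Psmb9 by 212 bases on the opposite strand, had 264, 188 and 180.4 CPM in positive libraries and 383, 229 and 234 CPM in negative libraries (-0.40 ± 0.13, adjusted p = 0.0849), with overlapping groups. Of 10 interferon signal genes 1 rose and 1 fell, set against the same shares of all tested genes. The kinase gene Jak2 had 78.7 ± 3.05 CPM in positive and 181 ± 12.8 CPM in negative libraries, a change of -1.20 ± 0.12 (adjusted p = 0.0112), and the receptor chain Ifngr2 rose by 0.88 ± 0.18 (adjusted p = 0.035).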

How the data were processed

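RNA of 6 libraries, 3 Qtracker positive and 3 Qtracker negative, was compared. The authors deposited whole-number estimated counts for each gene. FastQC, Salmon and mm10 are listed in the submitters' processing notes, with no versions, so the expected counts are taken as rounded Salmon estimates. The sources used here do not say how human reads were treated. The deposited normalized signal is the authors' raw count times a factor of unstated formula and was used only as an alternative.

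Genes passing filterByExpr (minimum count 10, minimum total 15) were scaled by TMM and tested with edgeR 4.0.16 (quasi-likelihood, in R version 4.3.3), blocking on the replicate number, and p-values were adjusted over all tested genes by Benjamini-Hochberg. Standard errors come from the F statistic. Fold changes are Qtracker positive over negative. Ratios were tested by exact permutation of the libraries as unpaired samples (scipy 1.17.1). The series calls the replicates paired. Deviations of same-numbered libraries correlated at 0.198, 0.0769 and 0.158, and those of different-numbered libraries at -0.185 to 0.147. Positive replicate 2 correlated at 0.116 with negative replicate 3, and positive replicate 3 at 0.147 with negative replicate 2. Lengths and positions are from GENCODE M21. The pipeline was checked on simulated data. Alternatives included DESeq2 1.42.0 and limma-voom 3.58.1; those fitted by these tools on fewer or summed replicates were chosen after seeing the data. Members and lists were chosen with earlier results of these data known. Named genes were all immune or activator members, their partners, the 3 called members of each other class with the largest change, and the 2 lowest p-values of each pathway list; further members are given by value to account for them.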

Additional observations from a re-analysis of the deposited data

How the results depend on the processing

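The count of proteasome genes called higher, 21 in the fit reported, was 17 to 28 under median-of-ratios scaling, no filter, DESeq2, limma-voom, the authors' normalized values and no replicate block (27). Of all genes, 18.5% were called higher in the fit reported and 11.4% to 23.4% in these alternatives. The count was 9 with library totals only (10.8% of all genes). The calls lost there were those of Psma3, Psma5, Psmb2, Psmb7, Psmb10, Psmc4, Psmc5, Psmd4, Psmd10, Psmd11, Psmd12 and Psme4. Over the fits that left out a replicate the count ranged from 0 to 42, and of all genes 0.0% to 37.1% were called higher. With replicates 2 and 3 summed it was 0 by edgeR (0.0% of all genes), 5 by DESeq2 and 1 by limma-voom. The 5 were 11.4% of members against 10.2% of all genes, and the 1 was 2.27% against 4.27%. These fits use fewer libraries. The count called lower, 1 (Psmb9), was 0 with no filter, 0 in every fit with replicates 2 and 3 summed, and 0 to 1 when a replicate was left out. Of all genes, 16.3% were called lower in the fit reported and 9.2% with no filter. That share was 0.0% to 12.2% with replicates 2 and 3 summed, and 0.0% to 35.8% when a replicate was left out. With library totals only, which lowers every fold change by construction, the log2 fold change turned to -0.094 for Psmb1, -0.25 for Psmb8, -0.10 for Psmd5, -0.18 for Psme1, -0.18 for Psme3 and -0.12 for Psmf1, none of them called, and the medians turned to -0.18 for the activator or immune class and -0.12 for the other activators and inhibitor. The change of Psmb9 over Psmb6 ranged from -2.43 to -1.98 when a replicate was left out, smallest without replicate 1, and that of Psmb8 over Psmb5 from -1.30 to -0.76. For Psmb10 over Psmb7 it ranged from -0.093 to 0.0080, with the positive value without replicate 1. Without the block, calls of 2 members were lost (Psmb10 and Psme4) and 8 gained. The pairing rests on the series' description, since same-numbered libraries correlated at only 0.0769 in replicate 2. That is below the 0.116 of positive replicate 2 with negative replicate 3. Where values differ, the cause was not tested.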

Other observations

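The products of the PA28 genes Psme1 and Psme2 assemble together. Psme2 over Psme1 was 1.11, 0.784 and 0.881 in Qtracker positive replicates 1, 2 and 3, and 0.64, 0.738 and 0.758 in Qtracker negative replicates 1, 2 and 3, with no overlap between groups. The log2 difference was 0.36 ± 0.16 (standard error), with the libraries treated as unpaired. Its exact two-sided permutation p was 0.1, the smallest that 3 unpaired libraries against 3 allow, so the difference did not pass 0.05. On the authors' normalized values the log2 difference was 0.29, with an exact permutation p of 0.3. Without replicate 1 the log2 difference was 0.15, a setting chosen after seeing the data. The copy Psme2b, whose reads may be shared with Psme2, limits this comparison.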
